A study of Arabidopsis thaliana with 9 samples.

Results

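Roots kept for 24 h at low total pressure (50 kPa) with oxygen restored to a partial pressure of 21 kPa, a treatment named 50 kPa/NormOx, were compared with roots kept at 97 kPa. The arrays were chosen by their sample titles, 3 in each group, and made up 6 of the 9 arrays of the series. The plants were Arabidopsis thaliana of ecotype Wassilewskija (WS), 5 d old, grown in continuous light on sugar-containing medium that also held the fungicide benomyl. Each array carried the pooled roots of the plants of 1 plate from 1 chamber, and the 3 arrays of a group came from 3 chambers. The atmosphere at 97 kPa was ambient, with the same oxygen partial pressure per the study. Carbon dioxide was held at 0.05 kPa in every chamber, and nitrogen made up the rest of the gas where oxygen was adjusted. The remaining 3 arrays, from roots at 50 kPa without added oxygen, served as a side comparison and shared the estimate of the spread between arrays.

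At high altitude, total pressure and oxygen fall together, and a plant organ meets hypoxia at the same time as thinner air. Supplying oxygen at low pressure separates the total pressure from the oxygen supply. Roots are known to meet water deficit by laying down suberin, a lipid polyester with waxes that lines endodermal walls, and by altering wall proteins and pectin. Low oxygen, in contrast, induces a core set of genes for fermentation and sugar use.

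All 6 arrays were of similar brightness, with a median MAS5 signal from 206 to 216 at 97 kPa and of at most 205 at 50 kPa/NormOx. The 3′ to 5′ signal ratio of the GAPDH control, a measure of RNA integrity, ran from 5.39 to 6.39 at 97 kPa and from 4.51 to 5.57 at 50 kPa/NormOx. That of ubiquitin ran from 4.84 to 5.11 and from 4.72 to 5.58, and that of actin from 58.0 to 69.8 and from 60.6 to 82.7, and the part of RNA integrity in the results was not tested. Arrays correlated at 0.949 to 0.965 within the 97 kPa group, at 0.944 to 0.947 within the 50 kPa/NormOx group and at 0.935 to 0.951 between the groups, across probe sets. In a principal component analysis of the 6 arrays, 50 kPa/NormOx replicate 2 stood apart from its group. It lay at 6.63 on the first component (27.8% of the variance), between the 97 kPa arrays (-32.8 to -15.8) and the other 50 kPa/NormOx arrays (28.8 and 30.4). Of 5 root hair and epidermis markers, EXPA7 (201 to 466 over the 6 arrays) and EXPA18 (302 to 634) were tested, while none of the listed markers of phloem, xylem, root cap or meristem had a named probe set. Of 7 shoot markers, 3 were tested, and their summed signal ran from 5689.7 to 7968 at 97 kPa and from 4570.3 to 11732 at 50 kPa/NormOx, with replicate 2 the highest. Neither list had a called gene (1 shoot marker and no root hair marker at an unadjusted p under 0.05 in limma), and the part of shoot tissue in the results was not tested.

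Low pressure with normal oxygen changed few transcripts past the test. Of 15818 nuclear probe sets tested, 62 (0.392%) passed in limma, at an adjusted p (Benjamini-Hochberg over all tested probe sets) under 0.05, and are termed called. The calls comprised 29 higher (0.183%) and 33 lower (0.209%) at 50 kPa/NormOx. Over all tested probe sets the median log2 change was -0.02, 46.9% lay above 0, and the central 90% lay between -0.63 and 0.53. A change of at least 2-fold was seen for 137 probe sets upwards and 199 downwards, of which 17 and 19 were called. The called changes ran from 0.65 to 2.40 for rises and from -2.38 to -0.61 for falls on the log2 scale. The roots were bulk samples, in which fewer cells of a type and less RNA per cell cannot be told apart. An unadjusted p under 0.05 in limma was reached by 2003 of the 15818 probe sets, 873 higher and 1130 lower. Counts at that p for lists and neighbours are to be read beside this share.

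**Figure D1:**
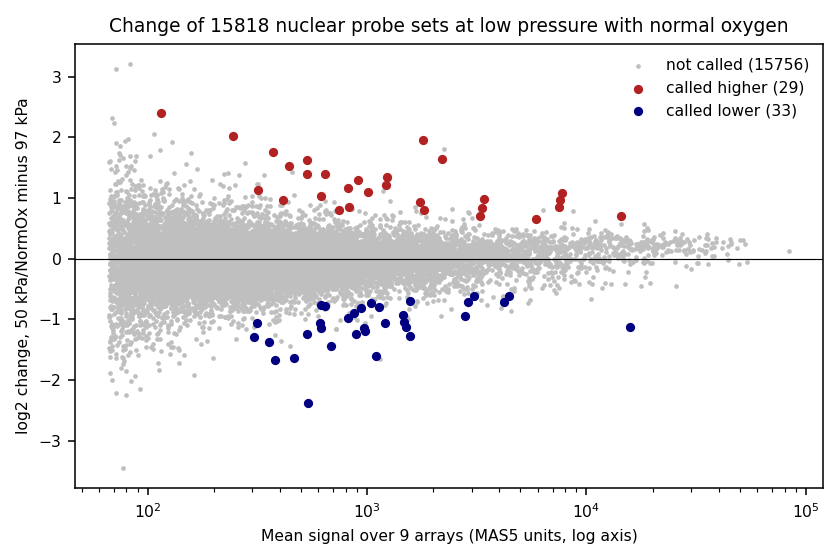
Each point is 1 of 15818 nuclear probe sets, placed by its mean MAS5 signal over 9 arrays (log axis) and its log2 change from 97 kPa to 50 kPa/NormOx; red and blue points are the 29 and 33 called probe sets. The calls lie mostly among brighter probe sets, with changes from -2.38 to 2.40.

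Most calls were of bright probe sets. When the tested probe sets were split into classes of equal size by mean signal, the brightest class (583 and above) held 21 of the rises and 26 of the falls, the middle class 7 and 7, and the dimmest class (66.7 to 229) 1 and 0. The median standard error of the log2 change was 0.15, 0.21 and 0.34 from the brightest class to the dimmest, so that a change of a given size was harder to call in a dim probe set. For all 62 calls the 3 arrays of one group lay wholly above or below those of the other, which was also true of 8.20% of tested probe sets towards higher and 10.3% towards lower values at 50 kPa/NormOx. Of the 62, 31 named 1 gene (15 higher, 16 lower), 3 named several genes, and 28 (12 higher, 16 lower) are given by number because the annotation did not list them.

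Of 5 tested genes of the suberin barrier, 3 were called higher. AT5G37690, a GDSL-type esterase/lipase of a family that includes enzymes of suberin assembly, read 845, 726 and 578 at 97 kPa and 1423, 1866 and 2205 at 50 kPa/NormOx. It was 2.55-fold higher (log2 change 1.35 ± 0.22 SE, adjusted p = 0.0201). The lowest 50 kPa/NormOx array was well clear of the highest 97 kPa array. Its relative AT2G23540 had signals of 363, 346 and 163 against 707, 834 and 1008, a 3.07-fold rise (adjusted p = 0.0308). At 97 kPa, replicate 3 was the lowest array for both lipases. AT2G48130, of the lipid transfer protein superfamily, whose members carry lipids outside the cell, went from 380.3, 247 and 293 to 734, 642 and 1081, a 2.65-fold rise (adjusted p = 0.0330).

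The suberin list held 23 genes, of which 5 had a named and tested probe set. Besides the 3 called, AT5G12420, a wax ester synthase-like acyltransferase, had a log2 change of 1.17 ± 0.30 (158 ± 59.6 against 352 ± 115, SD, n = 3; adjusted p = 0.102). FACT, a caffeoyl transferase that makes the alkyl caffeates of root wax, had a change of 0.88 ± 0.27 (329.6 ± 108 against 611 ± 238, adjusted p = 0.180). In all 5 every 50 kPa/NormOx array lay above every 97 kPa array, as in 8.20% of all tested probe sets. The median change of the list was 1.35, beside -0.02 over all tested probe sets. By array, the median of the 5 genes relative to the 97 kPa mean was 0.41, 0.04 and -0.57 at 97 kPa, 1.28, 1.14 and 1.66 at 50 kPa/NormOx, and 1.56, 0.67 and 0.89 at 50 kPa. This list was drawn up with the study's gene tables in view and is no independent evidence of a direction. Each of the 3 calls was lost without 97 kPa replicate 2, without 97 kPa replicate 3 or without 50 kPa/NormOx replicate 3. That of AT2G48130 was also lost without 97 kPa replicate 1 or without 50 kPa/NormOx replicate 1. On a separate list, of abscisic acid and water deficit response, 3 of 35 genes were tested. All 3 lay below 0 (median -0.26) and none was called, with 1 at an unadjusted p under 0.05 in limma.

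**Figure D2:**
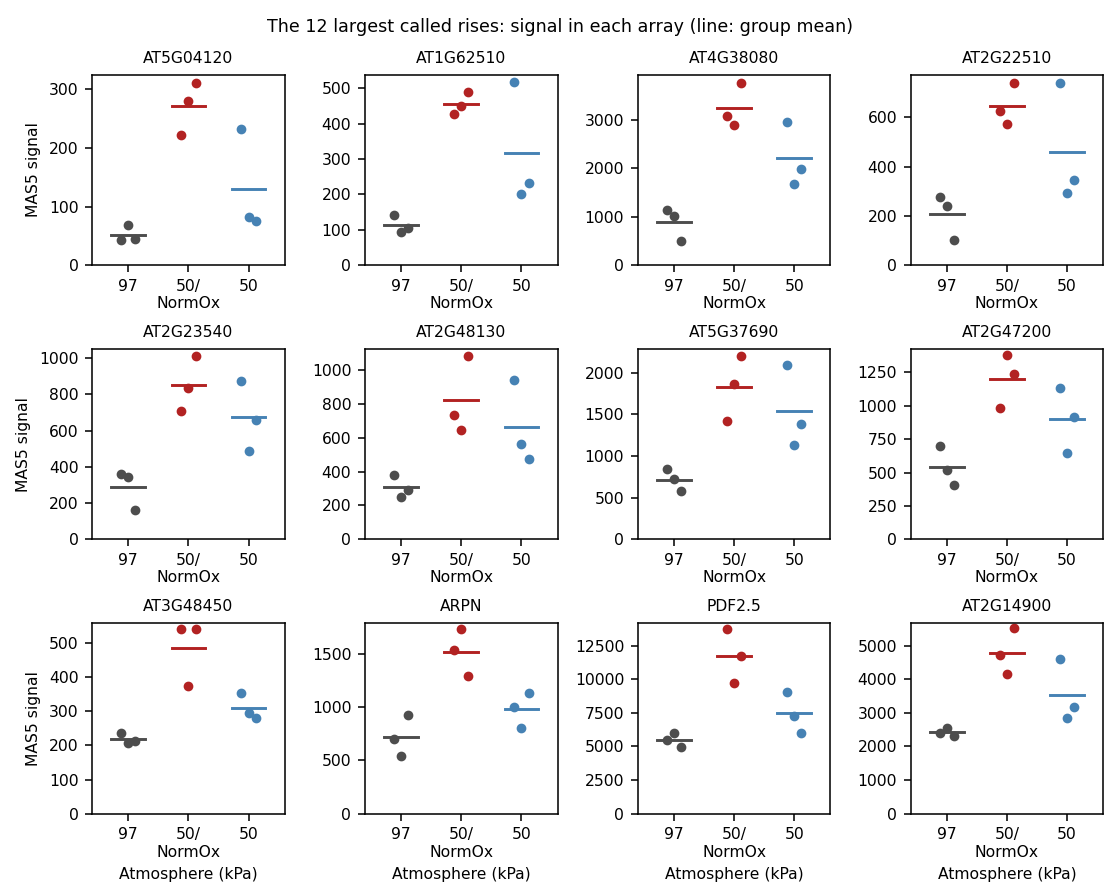
Each panel is 1 gene, with its MAS5 signal in the 3 arrays of 97 kPa, 50 kPa/NormOx and 50 kPa (points) and the group mean (line), for the 12 largest called rises that named 1 gene. In every panel the 50 kPa/NormOx arrays lie above all 97 kPa arrays, as for AT4G38080 (2906 to 3774 against 507 to 1145).

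Other called rises included AT4G38080, AT2G22510 and AT1G62510. AT4G38080, a hydroxyproline-rich glycoprotein of the extracellular matrix, read 1145, 1011 and 507 at 97 kPa and 3086, 2906 and 3774 at 50 kPa/NormOx, a 3.86-fold rise (log2 change 1.95 ± 0.26, adjusted p = 0.00792). AT2G22510, annotated to the same glycoprotein family, read 277, 239.7 and 102 against 623, 574 and 740.0 (3.39-fold, adjusted p = 0.0459). For both genes 97 kPa replicate 3 was the lowest array. AT1G62510, of the lipid transfer protein superfamily, rose 4.08-fold from 141, 94.9 and 104 to 428, 449 and 490.3 (adjusted p = 0.0109). The 3 arrays at 50 kPa/NormOx were close to each other and far above the controls. A probe set shared by AT4G12520 and AT4G12510, members of the same superfamily, went from 5582, 5103 and 5424 to 7765, 10890.0 and 13728 (1.96-fold, adjusted p = 0.0463). It cannot be said which of the pair gave the signal. The list of proline-rich and extensin wall proteins, which did not hold these genes, had 2 tested members and no call by limma. They were AT3G09000 at -0.71 ± 0.29 (adjusted p = 0.320, and the 1 member at an unadjusted p under 0.05) and HRGP1 at 0.19 ± 0.18 (adjusted p = 0.724).

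ARPN, the gene of plantacyanin, a small blue copper protein of the extracellular matrix, read 699, 538 and 929.8 at 97 kPa against 1534, 1732 and 1292 (2.14-fold, adjusted p = 0.0317). PDF2.5, a cysteine-rich plant defensin, was much brighter, at 5459, 5990.0 and 4966 against 13745, 9729 and 11702 (2.13-fold, adjusted p = 0.0109). It was the only one of 6 tested defensin genes called. The other 5 were all below 0, the next by p being PDF2.1 with a log2 change of -0.94 ± 0.24 (3209 ± 510.5 against 1778 ± 749, adjusted p = 0.102). AT2G14900, of the gibberellin-regulated GASA family of cysteine-rich peptides, rose 1.97-fold from 2395, 2532 and 2319 to 4707, 4139 and 5513 (adjusted p = 0.0237).

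Among the called probe sets the largest fold change was that of AT5G04120, which encodes a metal-independent phosphoserine phosphatase, which can release serine from phosphoserine. Its signals were 42.9, 69.0 and 44.1 at 97 kPa and 221, 279 and 311 at 50 kPa/NormOx, a 5.28-fold rise (log2 change 2.40 ± 0.42, adjusted p = 0.0311). Its 97 kPa arrays lay around the lowest mean signal that was tested (66.7), so the size of this rise is poorly set. AT1G62660, a vacuolar invertase that splits sucrose into hexoses, went from 1343, 1104 and 1324 to 2138, 2047 and 3129 (1.91-fold, adjusted p = 0.0366).

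AT3G48450, related to the immune regulator RIN4, read 238, 208 and 213 at 97 kPa and 541, 376 and 543 at 50 kPa/NormOx (2.19-fold, adjusted p = 0.0311). AT2G47200, whose product has no known function, read 699, 523 and 405 against 983, 1378 and 1239.7 (2.25-fold, adjusted p = 0.0373). Smaller rises were those of AT3G62650 (2596 ± 262 to 4649 ± 328, 1.79-fold) and AT2G20515 (1457 ± 147 to 2571 ± 514, 1.75-fold). A probe set shared by AT1G57860 and AT1G57660, which encode ribosomal protein L21e of the large subunit, rose 1.63-fold from 12779, 13619.8 and 10852 to 21184, 19874 and 19414 (adjusted p = 0.0317). The list of cytosolic ribosomal proteins held 51 genes, none of which had a probe set named for it alone.

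Among the falls, AT1G23130 was the strongest call of the comparison. It encodes a member of the polyketide cyclase and lipid transport superfamily. Its signals were 1371, 1428 and 1085 at 97 kPa and 154, 294 and 333 at 50 kPa/NormOx, 5.21-fold lower (log2 change -2.38 ± 0.26, adjusted p = 0.00256). The 50 kPa arrays read 359, 588 and 547. AT1G52820, a 2-oxoglutarate-dependent oxygenase, went from 963, 1117 and 1341 to 349, 437 and 479.6 (2.70-fold lower, adjusted p = 0.0330). AT4G00780, of the TRAF-like family, went from 1366, 1472 and 1526 to 568, 758 and 544 (2.36-fold lower, adjusted p = 0.0109). AT1G67870, which encodes a glycine-rich protein, read 3002, 2298 and 2731 against 1143, 1172 and 989.8 (2.42-fold lower, adjusted p = 0.0109). In each of these genes the groups were separated by a wide gap.

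**Figure D3:**
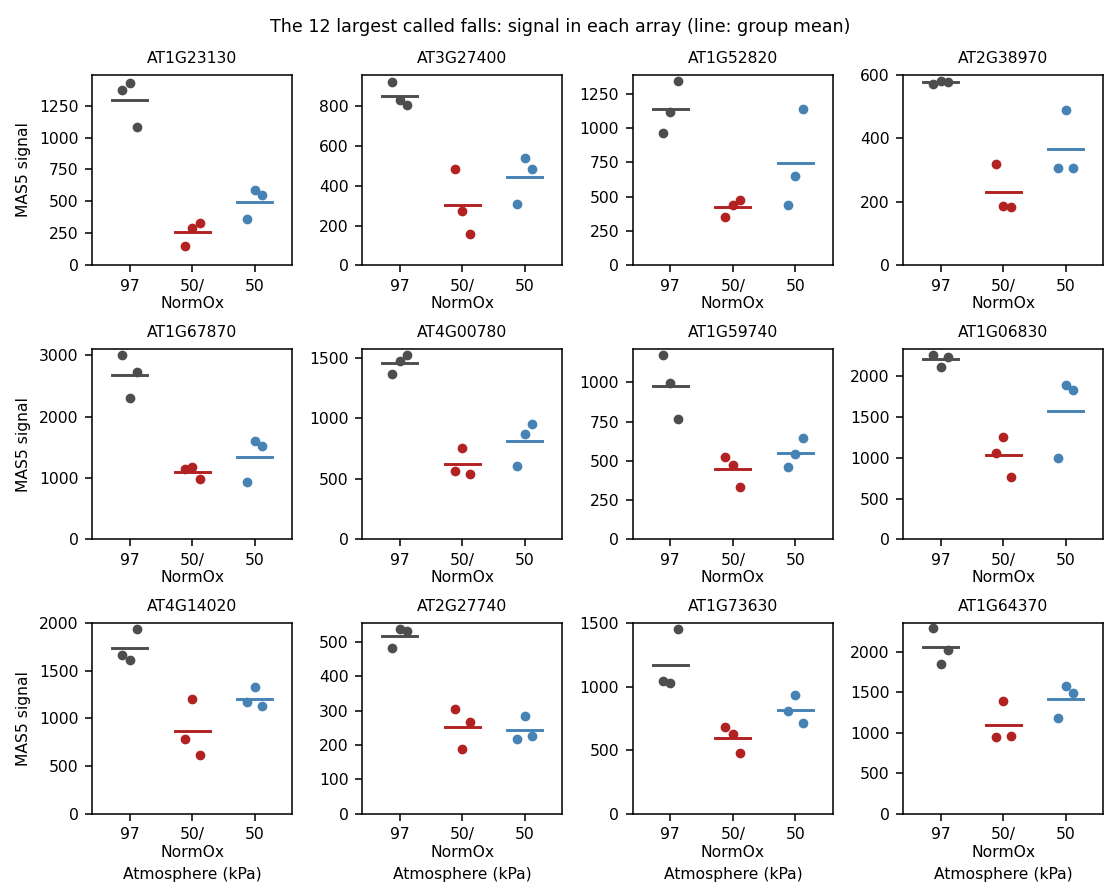
Each panel is 1 gene, with its MAS5 signal in the 3 arrays of 97 kPa, 50 kPa/NormOx and 50 kPa (points) and the group mean (line), for the 12 largest called falls that named 1 gene. AT1G23130 has the largest fold difference, with signals from 1085 to 1428 at 97 kPa and from 154 to 333 at 50 kPa/NormOx.

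Enzymes that act on the wall were among the falls. AT3G27400, a pectate lyase-like enzyme that cuts pectin, read 922, 834 and 808 at 97 kPa and 485, 274 and 156 at 50 kPa/NormOx (3.11-fold lower, adjusted p = 0.0366). Its 50 kPa/NormOx arrays spread widely, with replicate 3 the lowest. It was the 1 gene called among 15 tested pectate lyase-like genes, whose median was -0.16. The bright relative AT4G24780 had 9082 ± 563 against 6153 ± 934 (-0.57 ± 0.12, adjusted p = 0.0602). AT1G78060, a beta-xylosidase-like hydrolase of glycosyl hydrolase family 3, fell from 1282 ± 44.7 to 732 ± 107 (1.76-fold lower, adjusted p = 0.0317). A probe set shared by AT2G18150 and AT2G18140, class III peroxidases of the secreted kind that cross-links walls, went from 755, 817 and 893 to 456, 411 and 223 (2.36-fold lower, adjusted p = 0.0330).

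The 40 class III peroxidase genes with a probe set of their own had a median change of 0.09, with 23 above and 17 below 0, and none was called in limma. At an unadjusted p under 0.05, 6 were higher and 3 lower. AT4G11290 (peroxidase 39) had signals of 254, 268 and 255 against 665, 481 and 1063, a change of 1.43 ± 0.30 (adjusted p = 0.0585). AT2G35380 had a change of 1.40 ± 0.32 (adjusted p = 0.0709). The spread of the family therefore ran in both directions, from -1.41 to 1.43.

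AT1G06830, known as GRXS11, is a CC-type glutaredoxin, one of a plant-specific group of small thiol proteins that link redox state, nitrogen signals and growth. Its signals fell from 2263, 2118 and 2239 to 1057, 1262 and 771 (2.19-fold lower, log2 change -1.13 ± 0.22, adjusted p = 0.0405). Of the 15 tested CC-type glutaredoxins, 1 was called lower and none higher, 13 lay below 0 and the median was -0.72, beside -0.02 over all tested probe sets. AT5G18600 (GRXS2) had signals of 622, 603 and 816 against 177, 344 and 296, with a change of -1.36 ± 0.28 (adjusted p = 0.0573). AT3G62930 had a change of -0.73 ± 0.20 (adjusted p = 0.129) and AT3G62960 one of -1.31 ± 0.43 (adjusted p = 0.215). ROXY1 and ROXY2, members known for petal and anther development, lay above 0 at 0.05 ± 0.25 and 0.18 ± 0.32. In 8 of the 15 genes all 50 kPa/NormOx arrays lay below all 97 kPa arrays, as in 10.3% of all tested probe sets. By array the median of the list relative to the 97 kPa mean was -0.54, -0.40 and -0.62 at 50 kPa/NormOx and 0.07, -0.06 and -0.07 at 97 kPa. At 50 kPa it was -1.09, -0.27 and -0.17, also below every 97 kPa array.

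Further called falls were AT1G59740, PHV and AT1G73630. AT1G59740, named NPF4.3 in the family of nitrate and peptide transporters, read 1172, 999 and 768 at 97 kPa and 526, 475 and 336 at 50 kPa/NormOx (2.20-fold lower, adjusted p = 0.0317). It was the 1 called of 8 tested family members, which had 4 above and 4 below 0 and a median of -0.16. Its relative AT2G26690 had 832 ± 113 against 469 ± 26.8 (-0.82 ± 0.17, adjusted p = 0.0596). PHV, a homeodomain-leucine zipper transcription factor of organ polarity and vascular patterning, read 1198, 1362 and 1255 against 726, 711 and 625 (1.85-fold lower, adjusted p = 0.0317). AT1G73630, the calcium-binding protein CML26, went from 1042, 1027 and 1454 to 685, 626 and 474 (1.97-fold lower, adjusted p = 0.0359).

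The other called falls with a named gene were as follows. AT2G38970 read 572, 581 and 579 at 97 kPa and 319, 188 and 184 at 50 kPa/NormOx (2.59-fold lower, adjusted p = 0.0308), with controls that hardly differed among themselves. AT4G14020 went from 1672, 1619 and 1938 to 781, 1200.2 and 611 (2.09-fold lower, adjusted p = 0.0330). AT2G27740 went from 483, 538 and 532 to 306, 189 and 266 (2.08-fold lower, adjusted p = 0.0423). AT1G64370, an unknown protein, read 2289, 1851 and 2025 against 943, 1391 and 957 (1.90-fold lower, adjusted p = 0.0330). The smallest named falls were those of AT3G15650, of the alpha/beta-hydrolase superfamily (814 ± 51.0 to 481 ± 30.8, 1.69-fold lower), and AT1G21440 (5846 ± 219 to 3836 ± 342, 1.53-fold lower).

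Among the 28 called probe sets without a listed gene were some of the clearest. Probe set 257054_at fell from 22564, 22126 and 25757 to 10127, 12906 and 9431 (2.19-fold lower, adjusted p = 0.00728), and 262796_at from 1473, 1336 and 1732 to 779, 659.8 and 622 (2.20-fold lower, adjusted p = 0.00792). For both, the lowest 97 kPa array was far above the highest 50 kPa/NormOx array. The largest fall of these was that of 267626_at (567, 749 and 689 against 175, 215 and 241, 3.18-fold lower) and the largest rise that of 267457_at (907, 1321 and 1912 against 4508, 3742 and 4164, 3.13-fold, adjusted p = 0.0373). Probe sets 250500_at (2.89-fold), 262317_at (2.62-fold) and 254474_at (2.46-fold) also rose. The 12 rises ran from 0.65 to 1.65 and the 16 falls from -1.67 to -0.62 on the log2 scale.

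**Figure D4:**
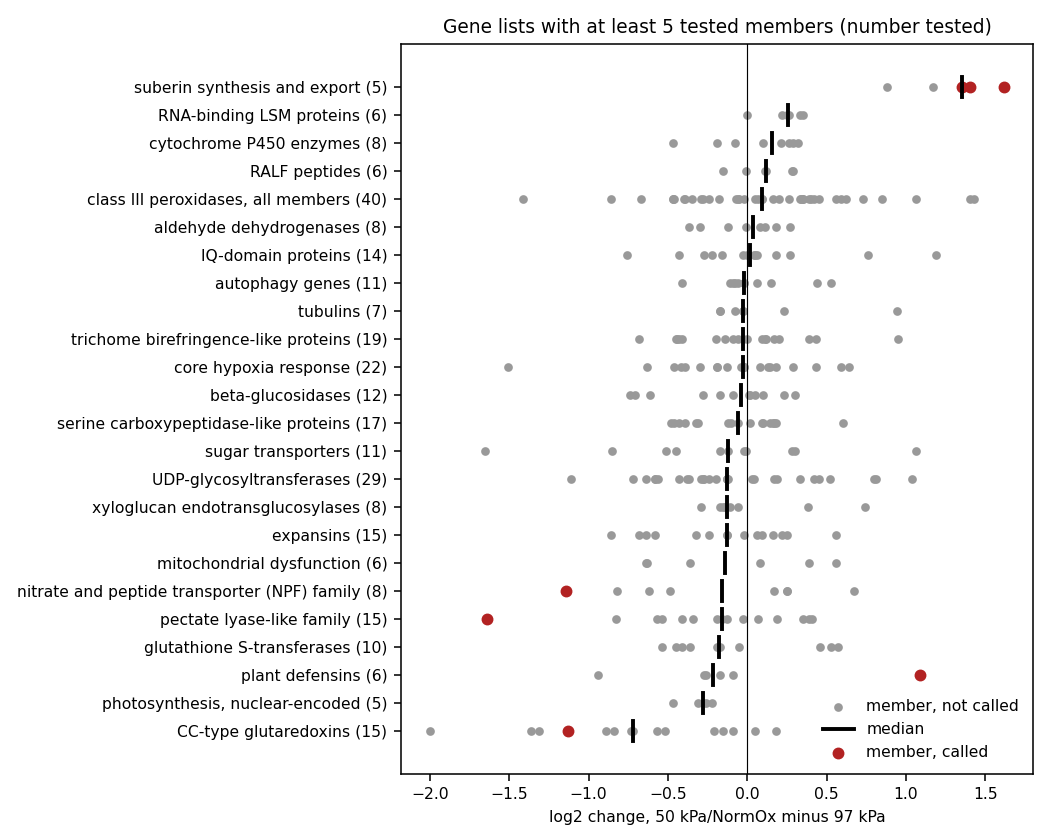
Each row is a gene list with at least 5 tested members (number in brackets), each point a member's log2 change from 97 kPa to 50 kPa/NormOx, red where called, and each black bar the list's median. The shorter list of class III peroxidases (5 tested, median 0.33) is not drawn, while the list of all members is. The suberin list (median 1.35) and the CC-type glutaredoxins (-0.72) lie farthest from 0, and the core hypoxia list (-0.03) sits at 0.

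Genes of the core hypoxia response were set beside these calls because oxygen was held at 21 kPa. Of 44 genes on that list, 22 were tested, and none was called by limma in either direction. The median change was -0.03, with 8 above and 14 below 0. At an unadjusted p under 0.05, 1 was higher and 1 lower, AT5G44730 (0.59 ± 0.22, adjusted p = 0.269) and AT1G19530 (-1.51 ± 0.53, 167 ± 15.9 against 74.9 ± 55.0, adjusted p = 0.243). By array the median of the list relative to the 97 kPa mean was 0.07, -0.12 and 0.07 at 50 kPa/NormOx, 0.00, -0.01 and 0.07 at 97 kPa, and 0.97, 0.75 and 1.08 at 50 kPa. On this list the 50 kPa/NormOx arrays lay close to the controls, and the 50 kPa arrays above both.

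Sugar transporters, expansins and xyloglucan enzymes gave no called gene, where limma at an unadjusted p under 0.05 gave 2, 5 and 1. Over all 15818 tested probe sets, 2003 reached that p. SWEET11, a sucrose exporter best known from phloem, had signals of 2316, 1559.8 and 1675 at 97 kPa and 269, 818 and 886 at 50 kPa/NormOx, a change of -1.65 ± 0.37 (adjusted p = 0.0680). The low array was replicate 1. The 11 tested sugar transporters had a median of -0.12, with SWEET13 at -0.51 ± 0.21 and SWEET16 at 0.30 ± 0.21. Of 15 expansins, proteins that loosen walls, 9 lay below 0 (median -0.13). EXPA4 had 2281 ± 114 against 1525 ± 129.9 (-0.58 ± 0.13, adjusted p = 0.0664), EXPA15 1883 ± 347 against 1199 ± 148 (-0.64 ± 0.16, adjusted p = 0.0886) and EXPA8 438 ± 127 against 239 ± 64.3 (-0.86 ± 0.27, adjusted p = 0.181). Among 8 xyloglucan endotransglucosylases (median -0.13), XTH16 had the smallest p (0.74 ± 0.22, adjusted p = 0.159).

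Families with other roles had medians close to that of all probe sets. They were -0.13 over 29 UDP-glycosyltransferases, -0.03 over 19 trichome birefringence-like proteins (wall acetylation), -0.06 over 17 serine carboxypeptidase-like proteins, -0.04 over 12 beta-glucosidases, -0.02 over 11 autophagy genes, 0.04 over 8 aldehyde dehydrogenases and 0.16 over 8 cytochrome P450 genes, with no gene called by limma in any of them. At an unadjusted p under 0.05 these families held 3, 3, 2, 0, 2, 1 and 0 genes in that order. The cytochrome P450 list held 240 genes, so its 8 tested members say little of the family. TBL36, of the trichome birefringence-like family, came closest to a call (7679.5 ± 579 against 4827 ± 834, -0.68 ± 0.14, adjusted p = 0.0561). TUB1, a beta-tubulin of microtubules, read 1125, 1593 and 1179.6 against 2945, 1817 and 2793 (0.94 ± 0.19, adjusted p = 0.0514), while the other 6 tested tubulin genes ran from -0.17 to 0.23. The 6 tested LSM genes, subunits of rings that act in splicing and RNA decay, had a median of 0.25 and a highest change of 0.35, and none was called, with 1 at an unadjusted p under 0.05. The 10 glutathione S-transferases had a median of -0.18 and the 6 mitochondrial dysfunction genes one of -0.14.

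The 3 tested S-adenosylmethionine decarboxylases, which feed polyamine synthesis, all lay below 0. AT5G15950 had 863 ± 78.3 against 522 ± 12.9 (-0.72 ± 0.15, adjusted p = 0.0602), AT3G25570 had 743 ± 21.1 against 385 ± 108 (-0.99 ± 0.22, adjusted p = 0.0689) and SAMDC had 12795 ± 136 against 11539 ± 1002 (-0.15 ± 0.10, adjusted p = 0.568). None passed, and the unadjusted p was under 0.05 for 2. Photosynthesis genes of the nucleus were thinly covered, with 5 of 48 tested, a median of -0.28 and no call or unadjusted p under 0.05. Their summed signal was 11079, 19151 and 12139 at 50 kPa/NormOx and 13892, 17520.0 and 19032 at 97 kPa, with replicate 2 the high array at 50 kPa/NormOx, as in the shoot markers.

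Besides the calls, 60 probe sets that named 1 gene had an adjusted p between 0.05 and 0.1, 25 of them higher and 35 lower. AT1G67860 had the largest change of these, with signals of 204, 279 and 173 at 97 kPa and 4.51, 77.6 and 21.4 at 50 kPa/NormOx (-3.45 ± 0.78, adjusted p = 0.0689). The values at 50 kPa/NormOx lay about or under the lowest tested mean signal, so the size is poorly set. The largest upward change was that of AT5G51490, a pectin methylesterase-type gene (29.7 ± 10.3 against 135 ± 23.5, 2.24 ± 0.56, adjusted p = 0.0955), again from dim controls. AT4G14695, a gene of the mitochondrial pyruvate carrier family, had 227 ± 62.7 against 517 ± 24.2 (1.23 ± 0.27, adjusted p = 0.0664). The thiamine synthesis gene THIC had 399 ± 37.2 against 226 ± 56.7 (-0.84 ± 0.21, adjusted p = 0.0901). BCAT4, of methionine chain elongation for glucosinolates, had 13086 ± 1189 against 8276 ± 297 (-0.66 ± 0.16, adjusted p = 0.0864).

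Tested genes directly adjacent to the called genes on the chromosome had changes from -0.41 to 0.65. For 17 called genes at least 1 immediate neighbour was tested, 21 neighbours in all, and none was called by limma, with 2 at an unadjusted p under 0.05. RALFL32, a gene for a secreted RALF peptide beside AT4G14020, read 10356 ± 339.9 at 97 kPa and 10335 ± 1176 at 50 kPa/NormOx. AT1G62500, a lipid transfer superfamily gene beside AT1G62510, had a change of 0.40 ± 0.20 (300.1 ± 37.3 against 404 ± 114, adjusted p = 0.429). AT1G73620, beside AT1G73630, had one of 0.65 ± 0.25, opposite in sign to its called neighbour (adjusted p = 0.284). Genes close by but not directly adjacent were left out. One was AT1G67860 (-3.45 ± 0.78, adjusted p = 0.0689), whose locus number is near that of the called AT1G67870.

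The direct test between 50 kPa/NormOx and 50 kPa, which share the total pressure and differ in oxygen, called 13 of 15818 probe sets (0.0822%). Of the 62 calls against 97 kPa, 1 was among them, the ribosomal protein L21e probe set of AT1G57860 and AT1G57660. It read 14259, 11067 and 10436 at 50 kPa, near the 97 kPa arrays, and was higher at 50 kPa/NormOx by 0.77 ± 0.13 (adjusted p = 0.0291). For the other 61 a difference between the low pressure groups was not shown, which does not mean that they were alike. Both tests use the 50 kPa/NormOx arrays, so their results are not independent.

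Set side by side, the 50 kPa arrays of several called genes spread more widely than those of the other groups. These genes were picked from calls between the other groups, whose arrays did not overlap. That choice favours a narrow spread in those groups, so the wider spread is not shown to be a trait of the 50 kPa arrays. AT5G04120 read 232, 81.5 and 75.9 at 50 kPa, and AT1G62510 read 517, 201 and 231. The suberin lipase AT5G37690 read 2093, 1130.3 and 1383. In these genes, and in AT4G38080 (2964, 1683 and 1998) and AT2G22510 (739, 293 and 346), 50 kPa replicate 1 was the highest array of its group. Among the falls, AT1G52820 read 438, 654 and 1137 at 50 kPa and AT1G06830 read 1004, 1899 and 1837, again with replicate 1 lying with the 50 kPa/NormOx arrays. PHV read 676, 944 and 691 and AT2G27740 read 218, 285 and 227, all below the 97 kPa arrays.

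The number of called probe sets depended on single arrays. Leaving out 97 kPa replicates 1, 2 or 3 left 15, 11 or 2 calls, and leaving out 50 kPa/NormOx replicates 1, 2 or 3 left 45, 104 or 2. Of the 62, these fits kept 14, 7 and 2 calls in the first case and 29, 53 and 1 in the second. The direction of all 62 was kept, which was bound to hold because their arrays did not overlap between the groups. AT1G23130 was called in all 9 fits that left out 1 array, AT4G38080 in 8 (lost without 50 kPa/NormOx replicate 3) and PDF2.5 in 7 (lost without that array or 97 kPa replicate 3), whereas 16 of the 31 named genes were called in at least 5. The 9 fits include those without 50 kPa replicate 1, 2 or 3, arrays that enter only the estimate of the spread. Those fits kept 62, 58 and 52 of the 62 calls, so counts out of 9 overstate the stability to the compared arrays. Without the intensity trend in the prior variance, limma called 0 probe sets (1800 at an unadjusted p under 0.05). At the study's rule, an unadjusted limma p under 0.01 and a change of at least 2-fold, 142 probe sets (0.898%) passed, 63 higher and 79 lower.

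**Figure D5:**
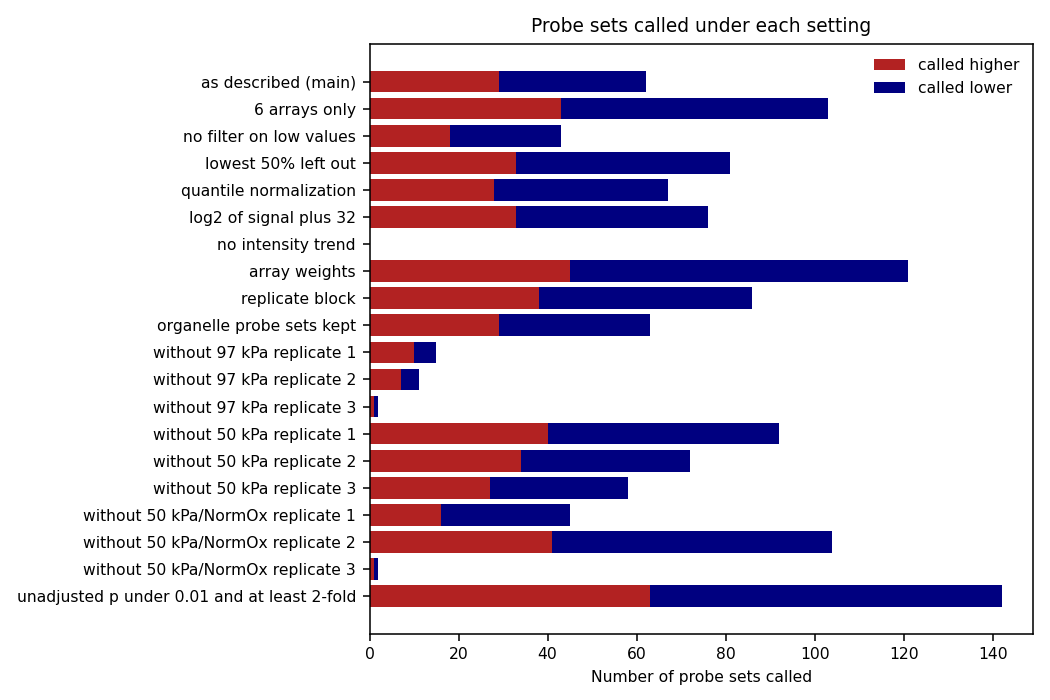
Bars give the number of probe sets called higher (red) and lower (blue) at 50 kPa/NormOx against 97 kPa under each setting of the analysis, with the described setting on top (29 and 33). The bars shrink most without the intensity trend (0) and without 97 kPa replicate 3 or 50 kPa/NormOx replicate 3 (2 each).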

How the data were processed

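Roots of 6 samples, with 3 further samples at 50 kPa, were measured on ATH1 arrays. The authors made the deposited signal intensity values with MAS5 in Affymetrix Expression Console, which scales each array to a common target, so that a shift shared by all transcripts is lost; the table carried no detection calls, so a dim probe set cannot be told from an absent transcript. Of 22810 probe sets, 64 controls and 148 organelle-encoded ones were left out, then the 30% with the lowest mean log2 signal, leaving 15818. The study tested values normalized differently, by the robust multi-chip average.

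Signals were taken to log2 with no offset and fitted over 9 arrays in limma 3.58.1 (R 4.3.3), with two-sided moderated tests, an intensity trend and Benjamini-Hochberg adjustment over all tested probe sets; a call was an adjusted p under 0.05. The fit was tested on simulated data. Precision is limited by the number of arrays, and p-values measure the spread between plates from separate chambers. Names came from the platform annotation (13513 probe sets with 1 gene, 13436 found in the TAIR10.1 RefSeq table; 503 with several; 8730 not listed and unnamed here).

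Gene lists were 44 from textbook knowledge and 16 families added once names and results had been read; each gene entered by its brightest probe set, and 11 lists had no tested member. Members and lists were chosen with earlier results of these data known. Named genes were all called probe sets with 1 gene, with values in every array for the 12 largest rises and the 12 largest falls, and up to 4 members of each list by smallest p. Probe sets given by number or naming several genes, markers, neighbours, the members ROXY1, ROXY2, SWEET16 and SAMDC and genes with an adjusted p between 0.05 and 0.1 were chosen after their values were seen. Genes were placed beside each other by the TAIR10.1 table; the genome build behind the array is not given in the sources used here. Alternatives covered the arrays fitted, filter, scaling, offset (log2 of signal plus 32), trend, weights, block, organelle probe sets, the study's rule and each array left out.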

Additional observations from a re-analysis of the deposited data

Results flagged for a closer look

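Hybridization spikes, bacterial and phage control RNAs added to every sample at the array step and outside the gene measurement, read higher on all 3 arrays at 50 kPa/NormOx than on any array at 97 kPa. The mean over 18 spike probe sets was 18445 ± 3384 (SD, n = 3; 22186, 17551 and 15597) against 14853 ± 514 (15156, 14259.8 and 15143). At 50 kPa it was 14626 ± 2189.7. Labelling spikes, added before labelling, overlapped between the groups (5396 ± 1062 against 4265 ± 823 over 24 probe sets). Their part in the gene results was not tested. Groups of 3 arrays were too small for the search for single outlying samples.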

How the results depend on the processing

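All 62 called probe sets kept their direction under every alternative in which they were tested. Their arrays did not overlap between the groups, so leaving out 1 array could not have reversed them. Against 62 calls (29 higher, 33 lower), the 6 arrays fitted alone gave 103 (60 lower), array weights 121 (45 higher, 76 lower), the study's rule 142 (63 and 79), no intensity trend 0 in each direction (1800 at an unadjusted p under 0.05) and no filter 18 higher. Leaving out single arrays gave 2 to 104 calls, 1 to 41 higher and 1 to 63 lower, with 52 lower and 92 in all without 50 kPa replicate 1; fewer samples and degrees of freedom are part of these fits. The replicate numbers did not pair the samples, since deviations of same-numbered arrays correlated at 0.074, -0.004 and -0.029, and the fit with the replicate block gave 86 calls. The remaining alternatives stayed within 1.5 times of these counts. Over 3626 refitted values of named genes, 0 reversed, 372 lost their call and 58 gained one. The cause of these shifts was not tested.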

Other observations

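Plastid-encoded transcripts, left out of the tests above, lay mostly below their 97 kPa level at 50 kPa/NormOx. Of 65 plastid probe sets bright enough to be tested when organelle probe sets were kept, 60 lay below 0 with a median log2 change of -0.48, and none was called in limma (38 at an unadjusted p under 0.05), so that no single one is shown to differ. The median by array, relative to the 97 kPa mean, was -0.47, -0.28 and -0.56 at 50 kPa/NormOx, -0.04, 0.11 and -0.09 at 97 kPa, and -0.06, 0.24 and 0.36 at 50 kPa, so that the 50 kPa/NormOx arrays lay below the other groups. Among all 106 organelle probe sets tested, 1 was called, which no gene is listed for (log2 change -0.74, adjusted p = 0.0428). In that fit 2043 of all 15922 probe sets reached an unadjusted p under 0.05 in limma.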
